A study of Sus scrofa with 13 samples.

Results

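Collagen processing and crosslinking genes were followed in the loin muscle of 13 pigs. The set was chosen by name and function, with earlier results of these data known. It held 10 gene symbols: PCOLCE, PCOLCE2, BMP1, SERPINH1, P4HA1, P4HA2, PLOD1, PLOD2, LOX and LOXL1. Of these, 9 matched a gene among the 25322 genes of the count tables, and SERPINH1, which encodes a collagen chaperone, was not analysed here because its symbol matched none. RNA-seq was done on longissimus lumborum (the loin muscle) of female pigs aged 6 months, all kept in the same housing and feeding conditions and slaughtered at a similar body weight. In the Hampshire (Hp) breed 3 pigs with high and 3 pigs with low loin weight were sequenced, and in the Pietrain (Pi) breed 4 with high and 3 with low. Per the study's methods the pigs were unrelated and were picked from a larger population for extreme loin weight, so the groups are ends of a range and not random samples of a breed.

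Each pig had 11312755 to 20134612 counts in total. The 15 pairs of pigs within a group all differed by more than sampling noise, so each pig was taken as 1 replicate. The skeletal muscle markers ACTA1, CKM, MYLPF, MYH1 and PYGM, which matched from a list of 8, were counted in every pig, with a summed level of 102001 to 260559 CPM (counts scaled to library size by the TMM method). The labels name no sequencing run for any pig, so an unlabelled batch cannot be told apart from breed or from loin weight group.

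Fibrillar collagen is made as procollagen, which is modified inside the cell and cut outside it. Prolyl 4-hydroxylases, whose catalytic subunits include P4HA1 and P4HA2, make the hydroxyproline that keeps the triple helix stable, and lysyl hydroxylases (PLOD1 mainly in the helix, PLOD2 in the telopeptides) set the type of crosslink that can form later. After secretion BMP1, the procollagen C-proteinase, removes the C-propeptide, PCOLCE and PCOLCE2 enhance that cut, and the lysyl oxidases LOX and LOXL1 start the crosslinks between chains. In skeletal muscle these genes are known mainly from the connective tissue cells around the fibres. The RNA came from whole muscle, in which fewer cells of a type and less RNA per cell cannot be told apart.

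On the Sscrofa10.2 assembly PCOLCE (ENSSSCG00000027466) lies on chromosome 3 from 7918398 to 7923583, a short gene of 5186 bases. PCOLCE2 (ENSSSCG00000011683) and PLOD2 (ENSSSCG00000011689) share chromosome 13, from 91282140 to 91367100 and from 94176353 to 94231624. BMP1 (ENSSSCG00000009620) and P4HA1 (ENSSSCG00000010292) are both on chromosome 14, from 6881426 to 6923145 and from 81892549 to 82002822. P4HA2 (ENSSSCG00000020915) lies on chromosome 2 from 139853769 to 139885838, PLOD1 (ENSSSCG00000003433) on chromosome 6 from 65903637 to 65929582 and LOXL1 (ENSSSCG00000001914) on chromosome 7 from 64102994 to 64126775. For LOX (ENSSSCG00000014232) no position was used here. Counts are per gene and not per transcript, and PCOLCE and PCOLCE2, P4HA1 and P4HA2, PLOD1 and PLOD2, and LOX and LOXL1 are related genes. How reads matching both genes of such a pair were shared is not given in the sources used here. RSEM, named in the submitters' processing notes, divides such reads by estimation, so the whole-number counts may be rounded estimates.

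The comparison of high with low loin weight asks which genes differ with muscle mass within a breed. In Hampshire, the C-propeptide enhancers PCOLCE and PCOLCE2 were both higher in the high than in the low pigs, by 3.41-fold and 4.61-fold, and none of the other 7 genes passed the test. In Pietrain none of the 8 genes tested passed it. A gene was called at an adjusted p-value under 0.05 (edgeR's quasi-likelihood test, Benjamini-Hochberg adjustment over all genes tested) and a fold change of at least 1.2. By that rule 26.6% of all genes tested were called in Hampshire, so 2 of 9 is a share near the background. In Pietrain 0% were called, 0 of 12065 genes by edgeR, where 398 genes had an unadjusted p-value under 0.05, none of them one of the 8, and with DESeq2 0 of the 8 were called. The median log2 fold change of the set was 0.37 in Hampshire and 0.20 in Pietrain, against 0.03 and 0.02 over all genes tested.

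**Figure D1:**
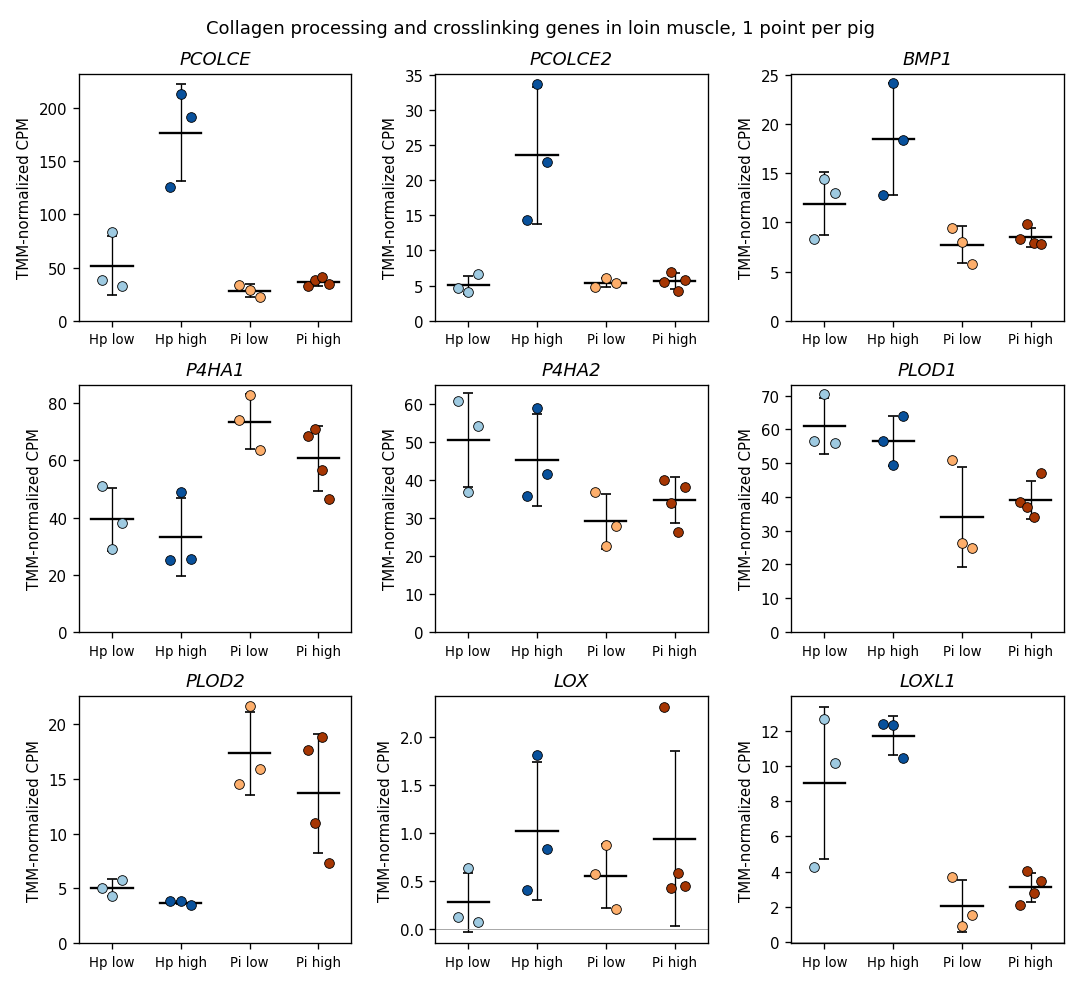
TMM-normalized CPM of the 9 genes in each pig (vertical axes start at or just below 0), by breed (Hp, Hampshire; Pi, Pietrain) and loin weight group. Points are pigs, thick lines are group means and bars are 1 SD (n = 3, 3, 3 and 4 from left to right). PCOLCE and PCOLCE2 stand apart in the Hampshire pigs with high loin weight, and PLOD2 is lower in all Hampshire than in all Pietrain pigs.

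PCOLCE was counted at 126, 213 and 192 CPM in Hampshire high pigs 8, 9 and 10. In Hampshire low pigs 1, 2 and 3 it was at 38.7, 83.8 and 33.1 CPM. Every high pig was above every low pig, and low pig 2 was the low pig nearest to them. The means were 177 ± 45.5 CPM (SD, n = 3) and 51.9 ± 27.8 CPM (SD, n = 3). This gave a log2 fold change of 1.77 (standard error [SE] of 0.360, edgeR adjusted p = 0.0102), and it stayed called with each pig left out in turn, between 1.53 and 2.29, the highest without low pig 2. Log2 fold changes in Hampshire correlated with the length of the gene (Spearman's rho = -0.39 across genes). Gene length is here the span on the chromosome from start to end, and transcript lengths were not available. With an offset for that length PCOLCE, a short gene, was at 1.41 (edgeR adjusted p = 0.0188). The study itself picked PCOLCE from these pigs, as higher in the high pigs of both breeds, and measured it by qPCR. Its change here is therefore not independent evidence.

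PCOLCE2, the second enhancer, was counted at 14.3, 33.6 and 22.6 CPM in high pigs 8, 9 and 10 of the Hampshire breed. In the low pigs 1, 2 and 3 it was at 4.59, 4.13 and 6.58 CPM. The lowest high pig was above the highest low pig, and low pig 2, which was high for PCOLCE, was the lowest of all 6 for PCOLCE2. The means were 23.5 ± 9.69 CPM (SD, n = 3) and 5.10 ± 1.30 CPM (SD, n = 3), and the log2 fold change was 2.21 (SE 0.329, edgeR adjusted p = 0.00375). It remained called whichever pig was left out, at 1.84 to 2.43.

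The protease that both enhance, BMP1, was at 12.8, 24.2 and 18.4 CPM in Hampshire high pigs 8, 9 and 10 and at 8.26, 14.4 and 13.0 CPM in low pigs 1, 2 and 3. High pig 8 lay below low pigs 2 and 3, so the groups overlapped. Its log2 fold change was 0.63 (SE 0.280, edgeR adjusted p = 0.124). With 3 pigs against 3, an exact two-sided permutation test cannot give a p-value below 0.1, the value it gave for PCOLCE and PCOLCE2 (BMP1, p = 0.3).

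The hydroxylases gave smaller differences in Hampshire. P4HA1 and P4HA2 had log2 fold changes of -0.25 (edgeR adjusted p = 0.560) and -0.16 (adjusted p = 0.652), with overlapping groups. For PLOD1, the helical lysyl hydroxylase, the value was -0.11 (adjusted p = 0.669). PLOD2, the telopeptide lysyl hydroxylase, was at 3.81, 3.82 and 3.51 CPM in the high pigs 8, 9 and 10 and at 5.08, 4.27 and 5.81 CPM in the low pigs 1, 2 and 3. These groups did not overlap, yet PLOD2 missed the threshold with a log2 fold change of -0.45 (SE 0.235, edgeR adjusted p = 0.185). Groups that did not overlap were seen for 3 of the 9 genes (PCOLCE, PCOLCE2 and PLOD2) and for 45.9% of all genes tested in Hampshire.

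The lysyl oxidases also missed the threshold. LOXL1 was at 12.4, 12.4 and 10.5 CPM in Hampshire high pigs 8, 9 and 10 and at 4.28, 12.7 and 10.15 CPM in low pigs 1, 2 and 3, with a log2 fold change of 0.37 (edgeR adjusted p = 0.430), and -0.01 without low pig 1. LOX was sparse, with 6, 20 and 13 counts in the high pigs and 2, 13 and 1 counts in the low pigs. Its log2 fold change was 1.71 (SE 0.793, edgeR adjusted p = 0.137), and without low pig 2 it was 3.22 with an adjusted p-value of 0.0487. At these counts the value for LOX depends on single pigs.

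Some markers of other cell types were called in the same contrast, in which 26.6% of all genes tested were called. The summed CPM of the 6 fibroblast markers was 790 to 1656 in the Hampshire high pigs and 308 to 597 in the low pigs, with DCN called and all 6 fold changes above 0. The 5 macrophage markers summed to 32.7 to 67.3 CPM against 18.5 to 28.0 CPM, with AIF1 and CD14 called higher. The 2 adipocyte markers that matched summed to 6.74 to 29.0 against 1.61 to 5.20 CPM with CIDEC called higher, and the 3 tendon markers to 15.4 to 29.2 against 6.24 to 14.1 CPM with TNMD called higher of the 2 tested. The endothelial and mural lists, of 4 genes each, had TIE1 and ACTA2 called higher, and their ranges overlapped (144 to 163 against 115 to 150 CPM, and 175 to 259 against 145 to 193 CPM). In each of these lists 3 of 4 log2 fold changes were above 0. Those of KDR (endothelial, -0.09) and RGS5 (mural, -0.45) were below 0 and not called. Of the 5 muscle markers CKM was called higher and MYH1 lower. TNMD had 14 to 28 counts in the high and 0 to 1 in the low pigs, and MKX, not tested, 0 to 1 in both groups. The other markers were counted in every Hampshire pig. Their part in the PCOLCE and PCOLCE2 result was not tested.

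In Pietrain, PCOLCE was counted at 32.6, 38.5, 40.7 and 34.7 CPM in high pigs 1, 2, 6 and 7 and at 33.9, 28.7 and 22.3 CPM in low pigs 3, 5 and 8. Only high pig 1 lay within the range of the low pigs, just below low pig 3. The log2 fold change was 0.41 (SE 0.201, edgeR adjusted p = 0.939, and an exact two-sided permutation p of 0.0571, the smallest possible being 0.0286). The study, with DESeq2, listed PCOLCE and other genes as differential in Pietrain. Here no gene was called by edgeR, and DESeq2 called none of the 8 genes either. A table of the study lists 3 Pietrain pigs of high loin weight, where 4 were used here. The reason for the difference was not tested. PCOLCE2 was at 5.57, 6.92, 4.28 and 5.80 CPM in the high pigs and at 4.76, 6.09 and 5.37 CPM in the low pigs. The low pigs lay within the range of the high pigs, with a log2 fold change of 0.10 (SE 0.262, edgeR adjusted p = 0.965).

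The other 6 genes tested in Pietrain had log2 fold changes from -0.31 (PLOD2, SE 0.313) to 0.63 (LOXL1, SE 0.496), with adjusted p-values of 0.939 to 0.943. None of the 8 genes had groups that did not overlap, against 4.6% of all genes tested. LOX was removed by the filter on low counts in this breed. It had 32, 6, 9 and 9 counts in high pigs 1, 2, 6 and 7 and 7, 11 and 3 counts in low pigs 3, 5 and 8, and was not tested within Pietrain. In Pietrain the 6 fibroblast markers summed to 314 to 689 CPM in the high and 347 to 545 CPM in the low pigs, ranges that overlapped, and 0 genes of any marker list were called by edgeR.

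**Figure D2:**
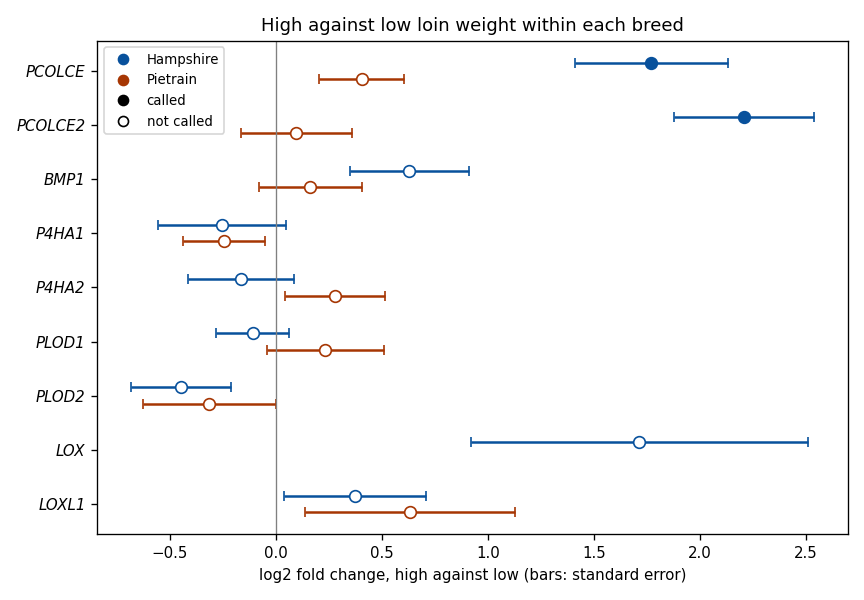
Log2 fold change of high against low loin weight for each gene in Hampshire (blue) and Pietrain (brown), with bars of 1 standard error from edgeR. Filled points are called and open points are not, and LOX was not tested in Pietrain. PCOLCE and PCOLCE2 in Hampshire, at 1.77 and 2.21, are the only filled points.

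A single fit of all 13 pigs tested whether the loin weight effect differed between Hampshire and Pietrain. The difference was called for PCOLCE2, where the Hampshire effect exceeded the Pietrain effect by 2.15 on the log2 scale (SE 0.410, edgeR adjusted p = 0.00998). It stayed called whichever pig was left out, at 1.73 to 2.34. For PCOLCE the difference was 1.39 (SE 0.420, edgeR adjusted p = 0.0671), just short of the threshold. It passed with DESeq2 in place of edgeR (adjusted p = 0.0162) and in edgeR without Hampshire high pig 8 (1.53, adjusted p = 0.0497) or without Hampshire low pig 2 (1.87, adjusted p = 0.00967). In the other 11 fits with a pig left out it was not called, the lowest value being 1.10 without Hampshire low pig 3 (adjusted p = 0.179). The difference for the other 7 genes lay between -0.41 (P4HA2) and 0.99 (LOX), with adjusted p-values of 0.474 to 0.974. Over all genes 5.9% were called, against 1 of the 9 here.

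The same fit compared the breeds at each loin weight, which asks how the levels of the set differ between a Hampshire and a Pietrain loin. Both comparisons use the same pigs as the comparisons within breeds, so the values are set side by side and not counted as separate evidence. LOXL1 was higher and P4HA1 and PLOD2 were lower in Hampshire than in Pietrain at both loin weights. PCOLCE, PCOLCE2 and BMP1 were higher in Hampshire among the pigs with high loin weight, and P4HA2 and PLOD1 were higher in Hampshire among those with low loin weight. Log2 fold changes correlated with gene length across genes (Spearman's rho = -0.21 at low and -0.39 at high loin weight). P4HA1 and PLOD2, lower in Hampshire, span 110274 and 55272 bases. Of the genes higher there, PCOLCE2 spans 84961 and the others 5186 (PCOLCE) to 41720 (BMP1). The part of length in these values was not tested. At low loin weight 5 of the 9 genes were called (3 higher and 2 lower in Hampshire), where 17.9% of all genes tested were. At high loin weight 6 were called (4 higher and 2 lower), where 46.8% of all genes were. The groups did not overlap for 4 and 6 of the 9 genes, against 42.8% and 48.6% of all genes.

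**Figure D3:**
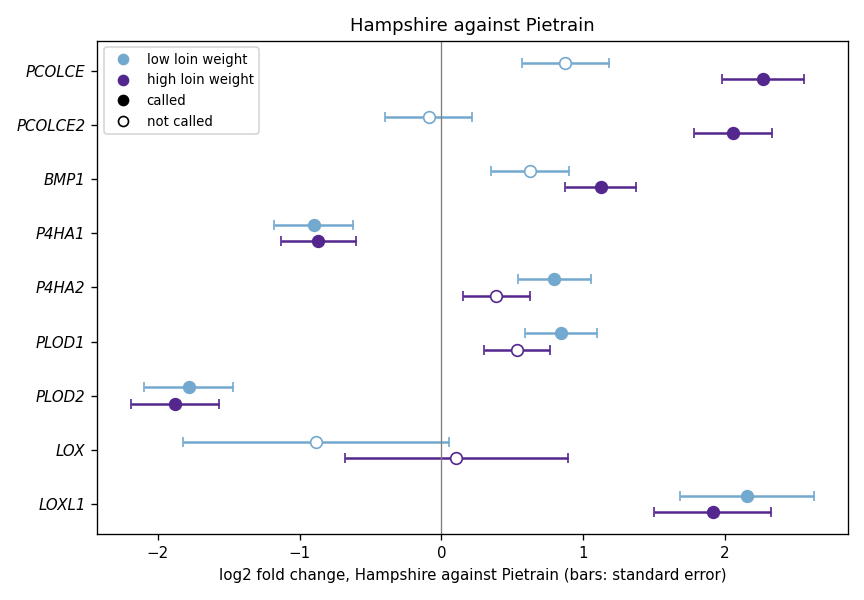
Log2 fold change of Hampshire against Pietrain for each gene among pigs with low (light blue) and high (purple) loin weight, with bars of 1 standard error from edgeR. Filled points are called and open points are not. PLOD2 and P4HA1 lie below 0 and LOXL1 above 0 at both loin weights, while PCOLCE2 lies at -0.09 at low and 2.06 at high loin weight.

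PLOD2 had the largest breed difference of the 4 hydroxylases in the set. It was at 3.51 to 5.81 CPM in the 6 Hampshire pigs, and in Pietrain at 17.6, 11.0, 18.8 and 7.34 CPM in high pigs 1, 2, 6 and 7 and 14.5, 21.7 and 15.9 CPM in low pigs 3, 5 and 8. The lowest Pietrain pig was above the highest Hampshire pig. Log2 fold changes of Hampshire against Pietrain were -1.78 at low loin weight (SE 0.314, edgeR adjusted p = 0.00896) and -1.88 at high loin weight (SE 0.309, adjusted p = 0.000331). At low loin weight the adjusted p-value was 0.0526 without Hampshire low pig 2, with a log2 fold change of -1.63.

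PLOD1, the other lysyl hydroxylase of the set, was higher in Hampshire at low loin weight. It was at 56.5, 70.6 and 56.1 CPM in the Hampshire low pigs 1, 2 and 3 and at 51.0, 26.3 and 24.7 CPM in the Pietrain low pigs 3, 5 and 8, without overlap. The log2 fold change was 0.85 (SE 0.252, edgeR adjusted p = 0.0358). That call was lost when only the 2 groups compared were fitted (adjusted p = 0.0566) and without any one of Hampshire low pigs 1, 2 and 3 or Pietrain low pigs 5 and 8 (adjusted p = 0.0592, 0.129, 0.0757, 0.151 and 0.133). Among the high pigs PLOD1 was at 49.3 to 64.1 CPM in Hampshire and 34.1 to 47.2 CPM in Pietrain, and its log2 fold change of 0.53 missed the threshold (adjusted p = 0.0745). It passed with only the 2 groups compared (adjusted p = 0.0491), without Pietrain high pig 7 (0.0473) or without Pietrain low pig 3 (0.0252).

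P4HA1 and P4HA2, the catalytic subunits of prolyl 4-hydroxylase, were called in opposite directions between the breeds at low loin weight. P4HA1 was at 51.0, 29.0 and 38.2 CPM in Hampshire low pigs 1, 2 and 3 and at 74.2, 82.9 and 63.6 CPM in Pietrain low pigs 3, 5 and 8. The groups did not overlap, and the log2 fold change was -0.90 (SE 0.278, edgeR adjusted p = 0.0393). At high loin weight it was at 25.3, 49.0 and 25.6 CPM in Hampshire pigs 8, 9 and 10 and at 46.6 to 71.1 CPM in Pietrain, where Hampshire pig 9 lay above the lowest Pietrain pig, with a log2 fold change of -0.87 (SE 0.264, adjusted p = 0.0154). The call at low loin weight was lost when any of 7 pigs of the 13 was left out, namely Hampshire low pig 2 or 3 (adjusted p = 0.180 and 0.122), Pietrain high pig 1 or 2 (0.0570 and 0.0556) and Pietrain low pig 3, 5 or 8 (0.0741, 0.133 and 0.0903). Among the high pigs it was lost without Hampshire high pig 8 or 10 (0.0573 and 0.0640).

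P4HA2 was at 60.8, 36.9 and 54.3 CPM in Hampshire low pigs 1, 2 and 3 and at 37.0, 22.6 and 27.8 CPM in Pietrain low pigs 3, 5 and 8. Hampshire pig 2 lay just below Pietrain pig 3, so the groups overlapped. The log2 fold change of 0.80 (SE 0.257, edgeR adjusted p = 0.0458) was near the threshold, and it missed it with DESeq2's size factors in edgeR (adjusted p = 0.0542), with no filter on low counts (0.0532) and when any of 9 pigs of the 13 was left out. Those were Hampshire high pig 8 or 10 (0.0511 and 0.0605), Hampshire low pig 1, 2 or 3 (0.136, 0.0739 and 0.118), Pietrain high pig 1 or 2 (0.0513 and 0.0550) and Pietrain low pig 5 or 8 (0.180 and 0.128). In the high pigs the log2 fold change of P4HA2 was 0.39 (adjusted p = 0.194).

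LOXL1, a lysyl oxidase known for its work on elastic fibres, was at 10.5 to 12.4 CPM in Hampshire and at 2.10, 4.05, 2.79 and 3.45 CPM in Pietrain high pigs 1, 2, 6 and 7. That is a log2 fold change of 1.92 (SE 0.413, edgeR adjusted p = 0.00207) with no overlap. At low loin weight it was at 4.28, 12.7 and 10.15 CPM in Hampshire pigs 1, 2 and 3 and at 3.69, 0.870 and 1.55 CPM in Pietrain pigs 3, 5 and 8, again without overlap, and the log2 fold change was 2.16 (SE 0.470, adjusted p = 0.0148). Without Hampshire low pig 2 or Pietrain low pig 5 or 8 the adjusted p-value at low loin weight rose to 0.0743, 0.0652 or 0.0639. LOX had log2 fold changes of -0.88 at low (adjusted p = 0.522) and 0.11 at high loin weight (adjusted p = 0.922).

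The C-propeptide genes were called between the breeds at high loin weight. Whether that difference was larger than at low loin weight is the same test as that of the breed difference in effect given above. PCOLCE and PCOLCE2 had log2 fold changes of 2.27 (SE 0.289, edgeR adjusted p = 5.43e-05) and 2.06 (SE 0.275, adjusted p = 8.02e-05), with all 3 Hampshire pigs above all 4 Pietrain pigs. In this comparison too log2 fold changes correlated with gene length (Spearman's rho = -0.39 across genes), and values with an offset for length are not given. BMP1 was at 12.8 to 24.2 CPM in Hampshire and 7.74 to 9.85 CPM in Pietrain among the high pigs, a log2 fold change of 1.12 (SE 0.253, adjusted p = 0.00273). At low loin weight PCOLCE and BMP1 had values of 0.88 (adjusted p = 0.0627) and 0.63 (adjusted p = 0.120), and PCOLCE2 of -0.09 (adjusted p = 0.854). PCOLCE passed at low loin weight with DESeq2 (adjusted p = 0.0333) and when each pig had to have at least 10 counts (0.0401). With the offset for length set aside, it was not called in the other settings or with any pig left out. Across the fits with a pig left out it ran from 0.39 (edgeR adjusted p = 0.334, without Hampshire low pig 2) to 1.16.

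Without Hampshire low pig 2, 0 of the 9 genes were called between the breeds at low loin weight, and 1 was without Pietrain low pig 5 or 8. The count was 2 without Hampshire low pig 3 and 3 without Hampshire low pig 1 or Pietrain high pig 1 or 2. For the high pigs it lay between 5 and 7. Over all genes 17.9% were called between the breeds at low and 46.8% at high loin weight, to be set beside the marker counts below. The 5 macrophage markers had sums of 18.5 to 28.0 CPM in Hampshire and 8.62 to 9.27 CPM in Pietrain low pigs (CD68 and CSF1R called higher) and 32.7 to 67.3 against 7.16 to 18.8 CPM in the high pigs (5 of 5). The fibroblast marker sums of the low pigs overlapped between breeds (308 to 597 and 347 to 545 CPM, 0 of 6 called by edgeR), and those of the high pigs did not (790 to 1656 and 314 to 689 CPM, DCN, DPT and THY1 called higher). Between breeds the mural list had 2 of 4 (CNN1 and ACTA2), the endothelial list 1 of 4 (TIE1) and the adipocyte and tendon lists 0 of 2 genes called at high loin weight, and these lists had 0 called by edgeR at low loin weight. At high loin weight 3 of the 4 mural and 2 of the 4 endothelial log2 fold changes were above 0. The muscle markers ACTA1 and CKM were called higher in Hampshire at high loin weight (1.23 and 1.36), of 5, and 0 of the 5 at low loin weight by edgeR. Their part in the breed differences of the set was not tested.

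Ratios of counts within a pig do not depend on how libraries are scaled. They are compared only between pigs and are not corrected for transcript length or for the correlation of log2 fold changes with gene length. PCOLCE spans 5186 bases on the chromosome and BMP1 41720, and the part of length in their ratio was not tested. The ratio of PCOLCE to BMP1 was 9.81, 8.80 and 10.4 in Hampshire high pigs 8, 9 and 10 and 4.67, 5.80 and 2.54 in low pigs 1, 2 and 3. The mean ratio of enhancer to protease was 1.24 higher on the log2 scale (2.35-fold) in the high pigs, with no overlap between the groups (exact two-sided permutation test, p = 0.1, the smallest that 3 against 3 allows). In Pietrain the ratio was 3.90 to 5.13 in the high and 3.58 to 3.84 in the low pigs, also without overlap, a difference of 0.24 (exact permutation test, p = 0.114). Adjusted over the 4 ratio tests made, both p-values were 0.229.

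**Figure D4:**
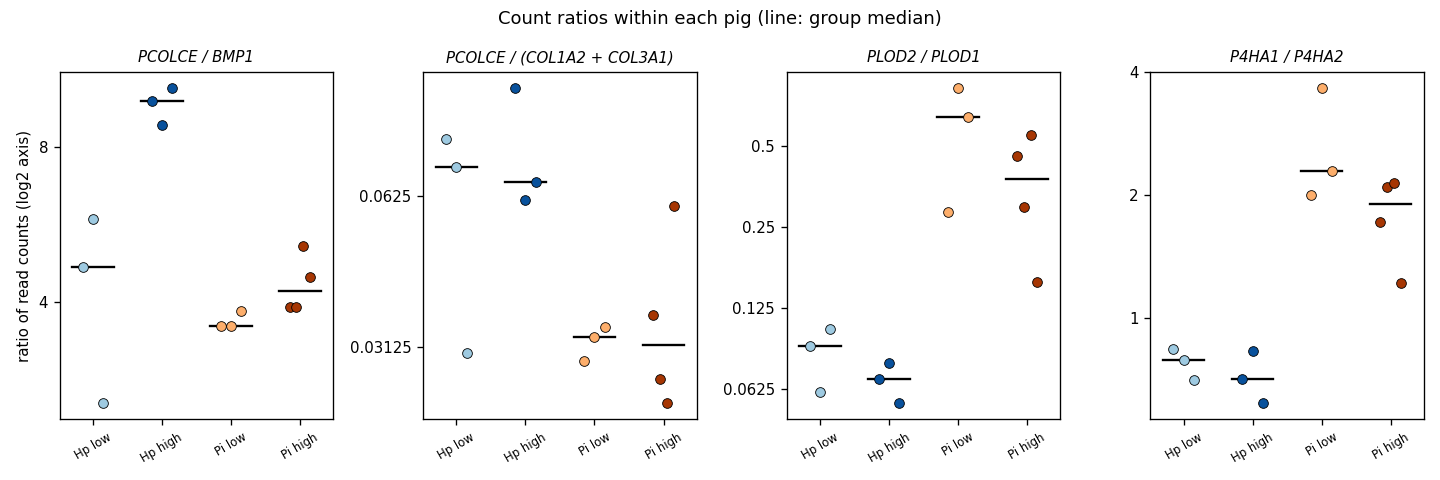
Ratios of read counts between genes within each pig, on log2 axes, by breed (Hp, Hampshire; Pi, Pietrain) and loin weight group. Points are pigs and lines are group medians. PCOLCE to BMP1 is highest in the Hampshire high pigs (8.80 to 10.4), PCOLCE to collagen overlaps between the loin weight groups, and PLOD2 to PLOD1 and P4HA1 to P4HA2 separate the breeds.

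The fibrillar collagen chains are the substrates of these enzymes. Of the 6 fibrillar collagen chains that matched a gene, all had a log2 fold change above 0 in Hampshire and 2 were called, COL1A2 (1.54, SE 0.459, adjusted p = 0.0382, edgeR) and COL3A1 (1.44, SE 0.416, adjusted p = 0.0341), against 26.6% of all genes. COL1A1 was not analysed here because its symbol matched no gene. Both calls were lost without any one of high pigs 9 and 10 and low pigs 1, 2 and 3, with adjusted p-values of 0.0506 to 0.133 for COL1A2 and 0.0524 to 0.118 for COL3A1. In Pietrain 0 of the 6 chains were called by edgeR, and between the breeds 0 were at low loin weight and 3 (COL1A2, COL3A1 and COL5A1) at high loin weight, all higher in Hampshire. Over all genes 0%, 17.9% and 46.8% were called in these comparisons. At high loin weight COL3A1 (1.03, adjusted p = 0.0496) lost its call with only the 2 groups compared (0.0601) and without Hampshire high pig 9 or 10 (0.234 and 0.152), Hampshire low pig 2 or 3 (0.0566 and 0.0601), Pietrain high pig 1 or 7 (0.115 and 0.109) or Pietrain low pig 5 or 8 (0.0667 and 0.0562). COL1A2 (1.36, adjusted p = 0.0195) lost it without Hampshire high pig 9 or 10 (0.111 and 0.0630). Set against the summed counts of COL1A2 and COL3A1, PCOLCE was at a ratio of 0.102, 0.0613 and 0.0665 in Hampshire high pigs 8, 9 and 10 and at 0.0813, 0.0714 and 0.0304 in low pigs 1, 2 and 3. The groups overlapped, and the difference in mean log2 ratio was 0.41 (exact permutation test, p = 0.6) in Hampshire and 0.10 (exact permutation test, p = 0.857) in Pietrain.

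Other ratios, chosen after the values were seen and given with no test, show how the members of each enzyme pair shared their counts. PLOD2 to PLOD1 was 0.0553 to 0.104 in the 6 Hampshire pigs and 0.156 to 0.823 in the 7 Pietrain pigs. P4HA1 to P4HA2 was 0.617 to 0.839 in Hampshire and 1.22 to 3.66 in Pietrain. Neither ratio overlapped between the breeds, and both overlapped between the loin weight groups of each breed. In both ratios the first gene spans more bases: 55272 against 25946 for PLOD2 and PLOD1, 110274 against 32070 for P4HA1 and P4HA2. The part of gene length in these ratios was not tested. PCOLCE to PCOLCE2 was 6.33 to 8.78 in the Hampshire high, 5.01 to 20.2 in the Hampshire low, 5.54 to 9.45 in the Pietrain high and 4.13 to 7.07 in the Pietrain low pigs, with Hampshire low pig 2 at the top.

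Further genes of collagen maturation (prolyl 3-hydroxylases, foldases, glycosyltransferases, N-propeptidases, other lysyl oxidases and the like) were taken as a list of 25 symbols, of which 20 matched. In Hampshire 1 of the 17 tested was called, PEPD, a dipeptidase that recycles proline, with a log2 fold change of 0.88 (SE 0.175, edgeR adjusted p = 0.00956). In Pietrain 0 of 16 were called by edgeR and in the difference between breeds 0 of 17. Over all genes 26.6% were called in Hampshire, 0% in Pietrain, 5.9% in the difference and 17.9% between breeds at low loin weight. At low loin weight 3 of 17 were higher in Hampshire than in Pietrain: P3H3, a prolyl 3-hydroxylase family member, at 1.35 (adjusted p = 0.0133), PLOD3, the third lysyl hydroxylase, at 1.34 (adjusted p = 0.0152) and PEPD at 0.93 (adjusted p = 0.0119). P3H3 and PLOD3 lost the call without Hampshire low pig 2 (adjusted p = 0.0684 and 0.0692), and all 3 lost it without Pietrain low pig 5 (0.0640, 0.0720 and 0.0516) or 8 (0.0577, 0.0604 and 0.0526).

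At high loin weight 46.8% of all genes were called between the breeds. Log2 fold changes in this comparison correlated with gene length, as given above, and the part of length in these calls was not tested. Of the 17, 9 were higher and 1, the procollagen export receptor MIA3, was lower in Hampshire. Of these the largest log2 fold changes were those of LOXL4, a lysyl oxidase (2.06, adjusted p = 0.00374, edgeR), FKBP10, a collagen foldase (1.64, adjusted p = 0.0144), P3H4, which acts with the hydroxylases in the endoplasmic reticulum (1.48, adjusted p = 0.00123) and PEPD (1.39, adjusted p = 3.06e-05). LOXL4 and FKBP10 were sparse, with 5 to 65 and 7 to 56 counts in the pigs of high loin weight, and FKBP10 lost its call without Hampshire high pig 10 (adjusted p = 0.102). Of 7 partners of LOX and BMP1 (fibronectin, periostin, fibulins and other matrix proteins), 3 were called higher in Hampshire high pigs (EFEMP2, FBLN5 and SPARC), 0 in Pietrain by edgeR and 1 in the difference between breeds (FBLN5). The shares over all genes were 26.6%, 0% and 5.9%. Between the breeds 0 were called by edgeR at low loin weight, against 17.9% of all genes. At high loin weight 5 were (EFEMP2, FBLN5, SPARC, FN1 and ELN, all higher in Hampshire), against 46.8% of all genes.

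Whether genes varied together with PCOLCE among pigs of the same group was measured as the correlation of log2 CPM after each group's mean was removed, over 13 pigs and 10 genes. BMP1 had Pearson's r = 0.68 (exact permutation test within groups, p = 0.0831, adjusted over 10 relations 0.245) and Spearman's rho = 0.70 (p = 0.0556, adjusted 0.139). COL3A1 had r = 0.61 (p = 0.0507, adjusted 0.245, exact permutation test) and rho = 0.72 (p = 0.00984, adjusted 0.0984), and COL1A2 r = 0.60 (p = 0.0980, adjusted 0.245) and rho = 0.60 (p = 0.0523, adjusted 0.139). No relation passed the adjustment. The 2 pigs farthest from the median of PCOLCE, Hampshire low pigs 2 and 3, were also left out after the group means had been removed. Then r was 0.91 for BMP1, 0.88 for COL3A1 and 0.84 for COL1A2. The remaining Hampshire low pig was still measured against a mean that included those 2.

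PCOLCE2 had r = 0.02 (exact permutation test, p = 0.940, adjusted 0.940) and rho = -0.04 (p = 0.924, adjusted 0.948). Its r was 0.53 with the same 2 pigs left out in the same way. The other 6 genes had r from -0.20 (P4HA2) to 0.51 (LOX) and rho from -0.19 (PLOD2) to 0.61 (LOX), with adjusted p-values of 0.139 or above. Without Hampshire low pig 1, or without Hampshire low pig 3, the relations of BMP1, COL1A2 and COL3A1 passed (adjusted p = 0.0251, 0.0251 and 0.0231 in both).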

How the data were processed

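RNA was sequenced by the authors as 101-base single-end TruSeq libraries in 4 technical runs. Per the labels the processing used FastQC, STAR, RSEM and DESeq2 with Sscrofa10.2. The authors deposited whole-number counts per Ensembl gene for each pig, named raw and not normalized (11312755 to 20134612 per pig), which may be rounded RSEM estimates. From the tables of the authors' own comparisons only gene symbols and positions were used, and not the fold changes and p-values.

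Counts were tested in R 4.3.3 with edgeR 4.0.16 (TMM, filterByExpr by group, glmQLFit and glmQLFTest), each breed alone and all 13 pigs in 1 fit for the comparisons of breeds, and checked on simulated counts. Standard errors were the log2 fold changes divided by the root of edgeR's F. Levels are CPM on 1 TMM scale over all pigs. Exact permutation tests of levels used log2 CPM with a pseudocount of 0.5, as did log2 ratios of counts. COL1A1 was planned for the collagen ratio but matched no gene, so COL1A2 and COL3A1 were summed. Of 88 symbols in the lists 71 matched.

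The genes and lists were chosen with earlier results of these data known. Named were all genes of the set, COL1A2 and COL3A1, and per comparison the 4 called maturation genes with the largest change. The 5 genes most correlated with PCOLCE were named as a description. Other list genes named beside a count were chosen after their values were seen. The alternatives were DESeq2 1.42.0, its size factors in edgeR, no filter, at least 10 counts in every pig, no fold threshold, other pigs in the fit, an offset for gene length, a pseudocount of 5 for ratios, and leaving out each pig in turn. A paper table lists 3 Pietrain pigs of high loin weight where the labels give 4, and all 4 were used.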

Additional observations from a re-analysis of the deposited data

Results flagged for a closer look

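The loin weight effect on PCOLCE2 differed between the breeds by 2.15 on the log2 scale (Hampshire minus Pietrain, adjusted p = 0.00998 from edgeR's test of the difference). In LOX, Pietrain high pig 1 stood apart from the other 3 pigs of its group, at 2.31 CPM (32 counts) against 0.419 to 0.584 CPM (6 to 9 counts). The gap to the nearest pig was 0.913 of the group's range. The 9 genes were looked at in this way in the 1 group of 4 pigs, and chance flags about 1 in 20 such groups.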

How the results depend on the processing

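No paired analysis was possible because no pig number is shared by the groups of a breed. With DESeq2, 2 genes of the set differed between breeds in the loin weight effect (1 with edgeR). Leaving out each pig in turn gave 1 to 2 genes there, 0 to 5 between the breeds at low loin weight, and 0 to 3 relations with PCOLCE that passed. The difference in log2 PCOLCE to collagen ratio ran from -0.027 to 0.68 in Hampshire (below 0 without low pig 3) and from -0.16 to 0.27 in Pietrain (below 0 without high pig 7). Within breeds the count of genes called was 2 in Hampshire (2 to 3 with a pig left out) and 0 in Pietrain in every setting run. Across genes, which are no replicates of each other, Spearman's rho of log2 fold change with gene length was -0.39 in Hampshire, -0.09 in Pietrain, -0.34 for the breed difference in effect, and -0.21 at low and -0.39 at high loin weight between breeds. With an offset for length, PCOLCE2 was at 2.59 (edgeR adjusted p = 0.00241) in Hampshire, while P4HA1 turned to 0.15 and P4HA2 to 0.0063. The offset was also fitted for the last 3, over all pigs, but its values were set aside and are not given. Fewer of the genes tested there had a length (77.7%, against 81.3% in the Hampshire and 82.6% in the Pietrain fit). P4HA1's breed difference in effect was -0.042 with no filter and -0.014 with at least 10 counts in every pig. With a pig left out the sign also turned, over the following ranges, for genes that were not called: r with PCOLCE of PCOLCE2 (-0.44 to 0.42), P4HA1 (-0.38 to 0.54) and P4HA2 (-0.44 to 0.40); LOXL1 in Hampshire (-0.0085 to 0.70); BMP1 (-0.0087 to 0.37) and COL1A2 (-0.13 to 0.34) in Pietrain; P4HA1 (-0.42 to 0.21), PLOD2 (-0.32 to 0.025) and LOXL1 (-1.04 to 0.083) in the breed difference in effect; PCOLCE2 (-0.27 to 0.092), COL1A2 (-0.31 to 0.26) and COL3A1 (-0.050 to 0.45) between breeds at low and LOX (-0.61 to 1.03) at high loin weight. The cause was not tested. Of 792 results with a pig left out, 695 kept direction and call, 56 lost a call, 11 gained one and 30 changed sign. They include results not called with all pigs, for which staying not called counts as kept. Of the 9 genes LOX had the lowest counts, 1 to 32 per pig.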

Other observations

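Among 12831 genes tested over all pigs, those whose level varied most like PCOLCE within groups were ADAMTS7 (Pearson's r = 0.897 over 13 pigs after group means were removed), ENSSSCG00000025785 (0.896), TMEM134 (0.878), SLC16A8 (0.875) and CYB5R3 (0.860). By the same measure BMP1 ranked 146 and PCOLCE2 5788. These are the extremes of many genes and are given as a description.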
